A study of Homo sapiens with 15 samples.

Results

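The genes described here encode the protein subunits of the mitochondrial ribosome, or mitoribosome. They were chosen by symbol alone, as MRPL or MRPS followed by a number, with an optional letter A, B or C after MRPS. The rule found 78 genes, 49 named for the large subunit and 29 for the small subunit, among 60651 genes in the table of a KIF20A depletion experiment and 23792 genes in the table of a KIF20A overexpression experiment. The mitoribosome translates the mRNAs of mitochondrial DNA, which encode core subunits of the respiratory chain and of ATP synthase. Its rRNAs are transcribed inside the organelle, whereas its protein subunits are encoded in the nucleus, made in the cytosol and imported. Some of these proteins have counterparts in bacterial ribosomes, and others are found only in mitochondria.

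The names mostly follow the subunits, but not always. Among the known exceptions, MRPS18A sits in the large subunit, and MRPS36 is now assigned to the 2-oxoglutarate dehydrogenase complex. Large-subunit and small-subunit genes below are those so named, whatever their place in the particle. MRPL58 is a peptidyl-tRNA hydrolase that is also a subunit of the large particle. A further 5 subunits have other names (DAP3, GADD45GIP1, CHCHD1, AURKAIP1 and PTCD3) and are given separately. By the GENCODE 29 annotation of GRCh38, the 78 genes lie on 21 chromosomes, with no more than 8 on any of them, and their exons cover a median of 2539 bases. Transcript GC content ran from 35.0% to 71.9% of bases, with a median of 48.9%.

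RNA was sequenced from MDA-MB231, a cell line from a human triple-negative breast cancer, in 5 groups of 3 libraries. SG1 and SG3 are both labelled as KIF20A knockdown and CTRL as WT; KIF20A_OE is labelled as KIF20A overexpression and EV as WT. KIF20A is a kinesin motor protein that works at the central spindle during cell division. The labels name no reagent for SG1, SG3 or KIF20A_OE, do not say whether a group is 1 clone, and do not say that replicates came from separate cultures. The p-values therefore measure only the spread between these libraries, which may be technical.

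Library totals were 40895819 to 51018667 counts in the depletion experiment and 15971297 to 22182293 fragments in the overexpression experiment. Depletion levels are given as CPM, the counts per 1000000 after TMM scaling, and overexpression levels as FPM, the fragments per 1000000, without a length correction in either. KIF20A itself had 123, 147 and 91.5 CPM in the SG1 libraries and 86.3, 60.8 and 79.1 CPM in the SG3 libraries, against 154, 171 and 160 CPM in the CTRL libraries. All 6 knockdown libraries lay below all 3 CTRL libraries, and the exact two-sided permutation test over these libraries gave p = 0.0238, the smallest this design allows. By edgeR the log2 fold change of KIF20A was -0.42 in SG1 (adjusted p = 0.913) and -1.10 in SG3 (adjusted p = 0.330), so neither passed the threshold of 0.05 over all genes. KIF20A had 1348, 269 and 896 FPM in the libraries labelled KIF20A_OE, against 101, 143 and 124 FPM in the EV libraries (limma log2 fold change 2.49, adjusted p = 0.00415).

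The libraries labelled KIF20A_OE go against their cell line label. CDKN2A had 276 to 353 FPM and MTAP 22.6 to 24.6 FPM in them, while both genes were at 0 in the EV libraries and in all 9 depletion libraries. The summed level of VIM, CD44 and EGFR, markers of a mesenchymal-like triple-negative line, was 381 to 804 FPM in the libraries labelled KIF20A_OE, against 3488 to 4001 FPM in EV. ESR1, PGR, ERBB2 and CDH1, listed as low in such a line, summed to 51.4 to 53.7 FPM, against 61.9 to 79.0 FPM in EV. Of the 3 of these tested by limma, 2 had positive log2 fold changes and 1 a negative one. The 3 leukocyte markers in that table, of 4 listed, summed to 0.751 to 1.07 FPM in the libraries labelled KIF20A_OE, with 1 of them at 0 throughout, against 0.773 to 5.35 FPM in EV. The 6 luminal markers summed to 395 to 505 FPM in the libraries labelled KIF20A_OE, against 932 to 1121 FPM in EV. They did not move together: of the 5 tested by limma, 3 had positive log2 fold changes (up to 3.95) and 2 negative (down to -1.59). The 4 endothelial markers summed to 0.910 to 36.2 FPM, against 17.5 to 30.6 FPM in EV, and the 4 fibroblast markers in that table, of 5 listed, to 75.3 to 83.6 FPM, against 27.2 to 97.0 FPM in EV. Every comparison of these libraries below is a comparison of libraries that differ in these genes as well as in KIF20A, and the parts of the differences cannot be told apart.

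The promoters of the genes the results turn on are shown first, as the 150 bases before the transcription start, 5′ to 3′ on the gene's strand, from RefSeq on GRCh38.p14. MRPL12, MRPL41 and MRPS34 had the smallest unadjusted p-values in SG1 against CTRL, MRPS22 had the smallest in SG3 against CTRL, and MRPL55, MRPS21 and MRPS10 had the smallest in KIF20A_OE against EV. MRPL14 had the highest mean level per kb of the large-subunit genes in CTRL and EV, though not in KIF20A_OE. Capitals mark whole matches, on either strand, to motifs of transcription factors known as regulators of nuclear genes for mitochondria: CCGGAAG (the ETS family, to which GABPA belongs), GCGCA and GCGC with any 1 base between them (NRF1) and AAGATGGC (YY1).
MRPL12: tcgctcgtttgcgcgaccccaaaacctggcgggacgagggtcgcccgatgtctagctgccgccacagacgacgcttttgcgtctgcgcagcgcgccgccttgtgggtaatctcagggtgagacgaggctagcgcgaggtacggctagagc
MRPL41: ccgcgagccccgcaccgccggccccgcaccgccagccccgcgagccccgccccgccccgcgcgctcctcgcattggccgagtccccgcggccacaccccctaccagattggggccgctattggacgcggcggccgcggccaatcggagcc
MRPS34: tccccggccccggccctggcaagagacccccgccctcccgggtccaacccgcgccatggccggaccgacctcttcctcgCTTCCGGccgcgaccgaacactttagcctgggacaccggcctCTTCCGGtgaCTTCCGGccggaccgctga
MRPS22: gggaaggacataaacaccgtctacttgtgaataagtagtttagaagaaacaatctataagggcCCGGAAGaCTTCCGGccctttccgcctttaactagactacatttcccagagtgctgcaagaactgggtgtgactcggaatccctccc
MRPL55: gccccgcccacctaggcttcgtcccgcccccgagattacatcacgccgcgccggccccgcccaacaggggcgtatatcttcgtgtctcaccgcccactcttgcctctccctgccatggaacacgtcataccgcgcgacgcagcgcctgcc
MRPS21: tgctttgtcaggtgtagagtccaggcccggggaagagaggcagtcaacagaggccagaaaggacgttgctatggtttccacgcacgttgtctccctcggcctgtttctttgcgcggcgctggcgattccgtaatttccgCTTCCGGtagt
MRPS10: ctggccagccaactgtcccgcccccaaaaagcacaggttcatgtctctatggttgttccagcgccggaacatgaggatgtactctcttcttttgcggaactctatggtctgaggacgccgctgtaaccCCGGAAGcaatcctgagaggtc
MRPL14: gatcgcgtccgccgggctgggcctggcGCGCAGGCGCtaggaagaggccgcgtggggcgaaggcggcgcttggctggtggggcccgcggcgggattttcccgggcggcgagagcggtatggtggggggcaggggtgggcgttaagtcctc
These stretches lie at chr17:81703217-81703366 on the plus strand (MRPL12), chr9:137551729-137551878 on the plus strand (MRPL41) and chr16:1773135-1773284 on the minus strand (MRPS34). The others lie at chr3:139343844-139343993 on the plus strand (MRPS22), chr1:228109300-228109449 on the minus strand (MRPL55) and chr1:150293711-150293860 on the plus strand (MRPS21). MRPS10 has its stretch at chr6:42217862-42218011 and MRPL14 at chr6:44127309-44127458, both on the minus strand. MRPS34 holds the ETS letters 3 times and MRPS22 holds them as a facing pair, MRPS21 and MRPS10 hold them once each, and MRPL14 holds the NRF1 letters. MRPL12, MRPL41 and MRPL55 hold none of the 3 motifs in this stretch.

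Promoters of 300 bases, 250 before the start and 50 after it, were matched for 69 of the 78 genes; 11 of these have more than 1 start, and the first listed was used. The ETS letters were found in 29 of the 69 promoters, a share of 42%, against 10.7% of the promoters of all 27305 genes in the table. Those 27305 genes were not selected by gene type or expression, nor matched for promoter GC content, so they are an unlike background. The YY1 letters were found in 20 promoters (29%), against 3.03% of all promoters. The NRF1 letters were found in 8 promoters (11.6%), against 6.28% of all. In 24 promoters (34.8%) none of the 3 motifs was found, against 82.1% of all promoters. The first YY1 match lay at or after the start in 15 of its 20 promoters, at a median position of 12, whereas the first ETS match lay before the start in 26 of its 29 promoters, at a median position of -32. In the large and small subunits the shares were 40.5% and 44.4% for ETS, 28.6% and 29.6% for YY1, and 14.3% (6 of 42) and 7.41% (2 of 27) for NRF1. These are matches of letters in a window and show neither binding nor its absence.

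The mitoribosomal genes together took 0.312%, 0.312% and 0.317% of the counts in the SG1 libraries and 0.305%, 0.336% and 0.350% in the SG3 libraries, against 0.332%, 0.331% and 0.362% in the CTRL libraries. All 3 SG1 libraries lay below all 3 CTRL libraries, while SG3 overlapped CTRL, with replicate 1 as its lowest. The share was 0.492%, 0.574% and 0.525% in the libraries labelled KIF20A_OE, against 0.327%, 0.372% and 0.339% in the EV libraries, without overlap. In bulk RNA, fewer cells of a type and less RNA per cell cannot be told apart.

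Levels of single genes spanned a wide range, and levels are compared between genes only per kilobase of exon. The median gene had 13.0 CPM per kb in SG1, 14.5 in SG3 and 14.95 in CTRL, and 24.3 FPM per kb in KIF20A_OE against 15.1 FPM per kb in EV. Large-subunit genes had a median of 16.1 CPM per kb in CTRL and small-subunit genes 9.29, and the same order held in EV, with 16.2 and 9.23 FPM per kb. Per kilobase of the longest coding transcript in place of all exons, the group medians were between 21.4 (EV) and 34.7 (KIF20A_OE), and the large subunit kept the higher median.

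Among small-subunit genes, MRPS10, the counterpart of a bacterial protein of the small subunit's head, had the highest level in CTRL, at 112 CPM per kb, and in EV, at 116 FPM per kb. The next were MRPS16 in CTRL, at 39.1 CPM per kb, and MRPS18B in EV, at 59.6 FPM per kb. Among large-subunit genes MRPL14 led both, at 107 CPM per kb in CTRL and 108 FPM per kb in EV, followed by MRPL37 in CTRL (57.9 CPM per kb) and MRPL15 in EV (65.1 FPM per kb). MRPL14 and MRPL15 encode counterparts of bacterial large-subunit proteins and MRPL37 encodes a mitochondria-specific one. In the CTRL libraries MRPS10 had 88.1, 103 and 144 CPM per kb and MRPL14 had 108, 99.6 and 113 CPM per kb. In the EV libraries MRPS10 had 110, 119.6 and 118 FPM per kb and MRPL14 had 119, 95.7 and 109 FPM per kb. The ranges overlap in both groups, so the order of the pair is not settled by these libraries.

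The lowest levels in CTRL were those of MRPL46 (0.304 CPM per kb) and MRPL53 in the large subunit, and of MRPS24 (0.545 CPM per kb) and MRPS28 (1.75 CPM per kb) in the small subunit. In EV the lowest small-subunit genes were MRPS24 (0.230 FPM per kb) and MRPS22 (1.45 FPM per kb). MRPL53, on chromosome 2 from 74471958 to 74473322, had 0 counts in all 9 depletion libraries, where 3 counts would be 0.0588 to 0.0734 CPM, and 0.448 ± 0.101 FPM in KIF20A_OE and 0.570 ± 0.325 FPM in EV (SD, n = 3 each). It shares 45.2% of its exon bases with CCDC142 on the same strand. MRPS24 shares 23.2% with the read-through gene URGCP-MRPS24, and MRPS28 35.8% with AC036214.3. In all, 26 of the 78 genes share more than 10% of their exon bases with another gene, 10 of them on the same strand; the strand setting and the treatment of shared reads are not stated in the labels, so their levels are uncertain. Processed pseudogenes of the family, 79 in the count table, summed to 2.28 to 4.02 CPM per library, and 21 of them had any count.

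**Figure D1:**
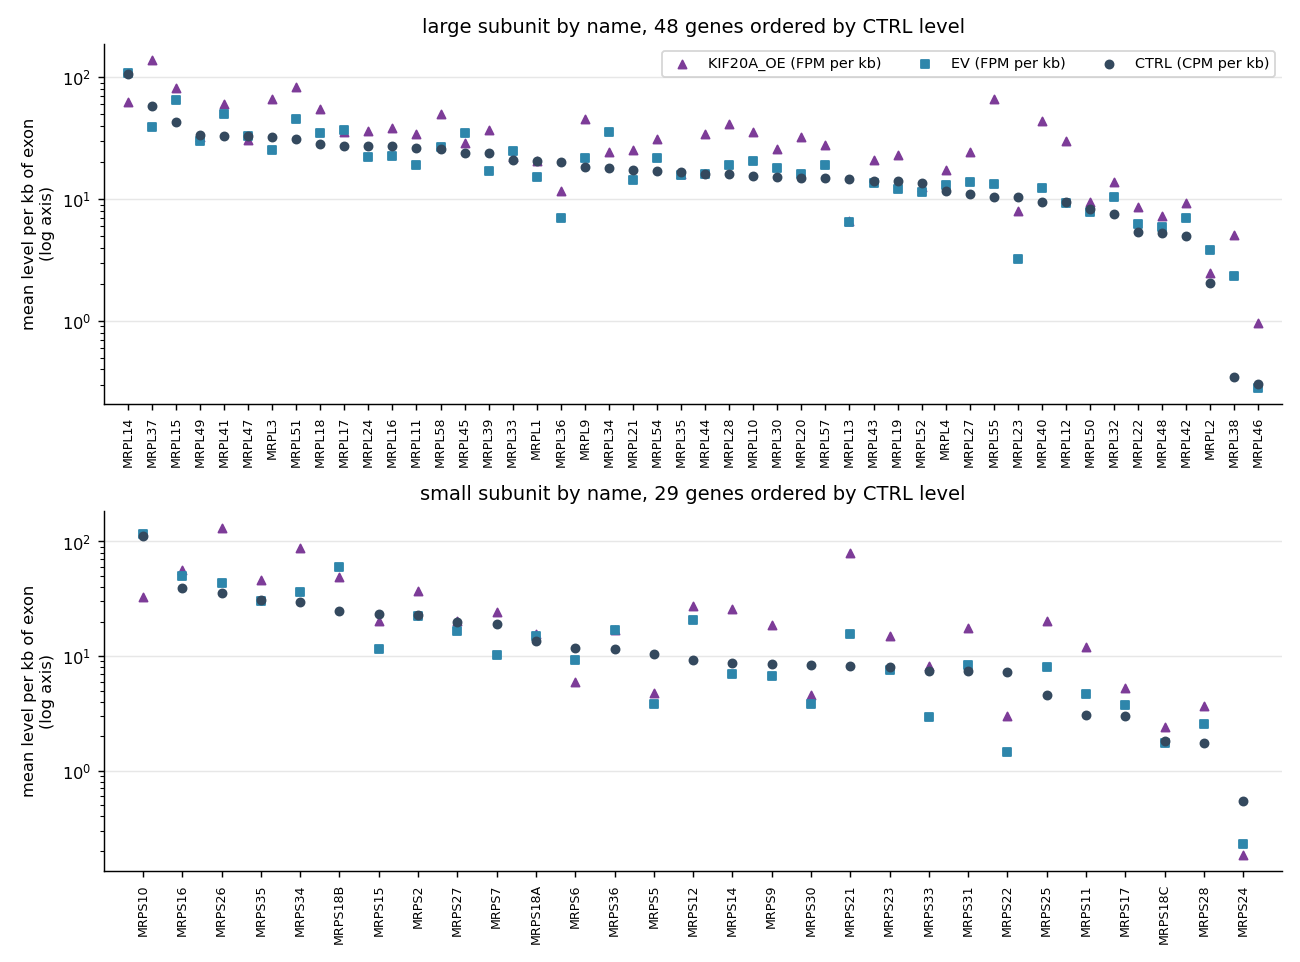
Mean level per kilobase of exon (log axis) of 48 large-subunit and 29 small-subunit genes, ordered by the CTRL level, in libraries labelled KIF20A_OE (triangles), EV (squares) and CTRL (circles), 3 libraries each. MRPL53, at 0 in CTRL, is not drawn; EV and CTRL mostly run together while MRPS21, MRPL55 and MRPS10 stand apart in KIF20A_OE.

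Across the genes, the order of levels per kb was close between the groups labelled WT, with a Spearman correlation of 0.89 between EV and CTRL over 77 genes. It was 0.97 between SG1 and CTRL, 0.99 between SG3 and CTRL and 0.87 between KIF20A_OE and EV. Genes share library and length in these comparisons, and the values are descriptions across genes, not tests. The paralogs MRPS18A, MRPS18B and MRPS18C, all related to 1 bacterial ribosomal protein, kept 1 order in each of the 5 groups: MRPS18B was highest, at 23.6, 23.5 and 24.9 CPM per kb in SG1, SG3 and CTRL, followed by MRPS18A, at 12.7, 12.1 and 13.5. MRPS18C was lowest, at 1.48, 1.52 and 1.81 CPM per kb in SG1, SG3 and CTRL.

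SG1 was compared with CTRL to ask how the gene set stood where KIF20A was depleted. No mitoribosomal gene passed an adjusted p of 0.05 by edgeR's quasi-likelihood test (0 of 77 tested; 0% of all 16786 genes). The fold changes were mostly negative: 57 of 77 (74.0%) lay below 0, against 50.3% of all genes, with a median log2 fold change of -0.16 beside -0.00 for all genes. The 3 SG1 libraries all lay below the 3 CTRL libraries for 31 of the 77 genes, against 7.21% of all genes, and all above for 0, against 4.96% of all genes. Large-subunit genes had a median of -0.18, with 37 of 48 negative, and small-subunit genes -0.12, with 20 of 29 negative. At an unadjusted p under 0.05, 6 genes were lower and 0 higher, against 3% and 1.58% of all genes; by DESeq2 the count of lower genes was 7, and by edgeR it was 20 without SG3 replicate 1, which enters the shared estimate of spread. The count was 1 without CTRL replicate 1 and 2 without CTRL replicate 2. The share of all genes was counted only by edgeR on all 9 libraries. Counts from the other fits therefore cannot be called particular to these genes. The 4 leukocyte markers, 1 of them at 0 in each group, summed to 5.61 to 7.29 CPM in SG1, against 8.74 to 10.7 CPM in CTRL. In SG3 they summed to 5.69 to 7.41 CPM, and only 1 of the 4 passed the filter for testing. The summed endothelial, fibroblast and luminal markers of SG1 and of SG3 overlapped those of CTRL. The part of any of these markers in the difference was not tested.

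The largest difference was in MRPL12, a protein of the large subunit's stalk that contacts translation factors. It lies on chromosome 17 from 81703357 to 81707526 and shares 68.2% of its exon bases with AC139530.2 on the same strand. MRPL12 had 2.97, 3.52 and 3.35 CPM in SG1, against 13.8, 11.2 and 4.12 CPM in CTRL, with 3.07, 14.99 and 14.99 CPM in SG3. The SG1 libraries did not overlap CTRL, yet CTRL replicate 3 and SG3 replicate 1 lay near the SG1 level. The log2 fold change in SG1 was -1.56 ± 0.49 (SE), with an unadjusted p = 0.00641 and an adjusted p = 0.913 by edgeR.

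MRPS34, a mitochondria-specific small-subunit protein, had 19.2, 19.9 and 15.6 CPM in SG1, against 40.8, 37.7 and 19.9 CPM in CTRL, with 15.5, 42.2 and 38.2 CPM in SG3. Its highest SG1 library and CTRL replicate 3 both round to 19.9 CPM. MRPL41, a large-subunit protein found only in mitochondria, had 24.5, 30.5 and 27.96 CPM in SG1, against 49.2, 41.1 and 33.7 CPM in CTRL. In both genes SG1 lay below every CTRL library and replicate 3 was the lowest CTRL library. The log2 fold changes were -0.85 ± 0.32 for MRPS34 and -0.58 ± 0.20 for MRPL41 (SE), with edgeR's adjusted p at 0.913 for each. MRPS26, MRPL51 and MRPL28 made up the other lower genes at an unadjusted p under 0.05, at -0.55, -0.52 and -0.50, and were named for that count after their values were seen. MRPL28 is a counterpart of a bacterial large-subunit protein, and MRPS26 is specific to mitochondria.

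**Figure D2:**
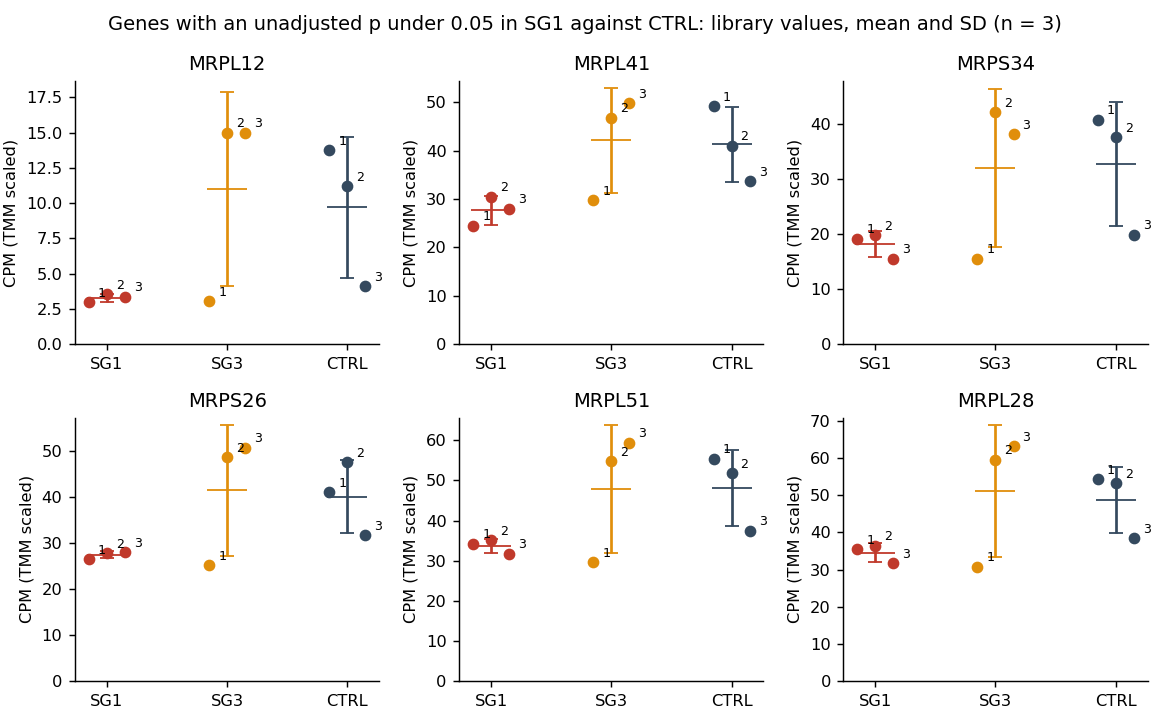
CPM after TMM scaling in each SG1, SG3 and CTRL library for the 6 genes with an unadjusted p under 0.05 in SG1 against CTRL; numbers mark replicates, horizontal bars means, and error bars the SD over 3 libraries. SG3 replicate 1 lies near SG1 in each panel, and CTRL replicate 3 is the lowest CTRL library.

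The difference moved with the GC content of the transcripts. All genes were split into 3 classes of near-equal size by GC content. In the high class the mitoribosomal median log2 fold change in SG1 against CTRL was -0.25 (23 genes), beside -0.16 for all genes of that class. In the middle class it was -0.16 (33 genes), beside 0.01 for all genes, and in the low class 0.01 (21 genes), beside 0.12 for all genes. Within each class the mitoribosomal median thus lay below that of all genes. The genes with all SG1 libraries below all CTRL libraries numbered 14 of 23 in the high class (13.5% of all genes there), 14 of 33 in the middle class (6.22%) and 3 of 21 in the low class (1.99%). Across the 77 genes the Spearman correlation of fold change with GC was -0.50, and across all genes -0.45. With the GC trend of each library removed, the median was -0.14, with 59 of 77 negative and 0 called. The part of GC content in the difference was not otherwise tested.

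**Figure D3:**
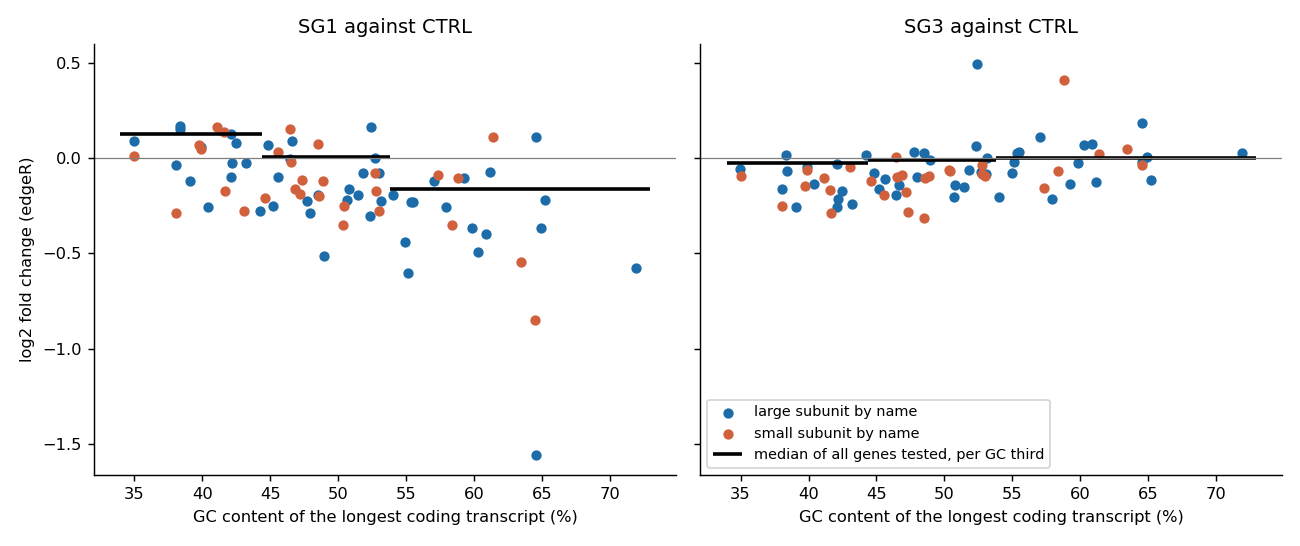
Log2 fold change by edgeR against transcript GC content for 77 mitoribosomal genes in SG1 against CTRL (left) and SG3 against CTRL (right), coloured by subunit; black bars give the median of all genes tested in each GC class. The points fall with GC on the left (Spearman correlation -0.50) and rise on the right (0.44). Across all genes tested the correlations were -0.45 in SG1 and 0.05 in SG3.

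Single libraries also moved with it. The mean deviation of the 77 genes from their mean over the 9 libraries was -0.09, -0.03 and -0.09 in SG1 and -0.19, 0.06 and 0.11 in SG3, against 0.05, 0.04 and 0.14 in CTRL, on the log2 scale. For the high-GC genes it was -0.22, -0.16 and -0.20 in SG1 and -0.37, 0.29 and 0.30 in SG3, against 0.22, 0.18 and -0.04 in CTRL. SG3 replicate 1 was thus the lowest library and CTRL replicate 3 the lowest of its group. For the low-GC genes CTRL replicate 3 was the highest library, at 0.29. Without CTRL replicate 3, the count of genes with SG1 wholly below CTRL was 32 (18.2% of all genes) and 17 genes lay wholly above (20.4%); 50 of 77 fold changes were then negative and the median was -0.13.

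**Figure D4:**
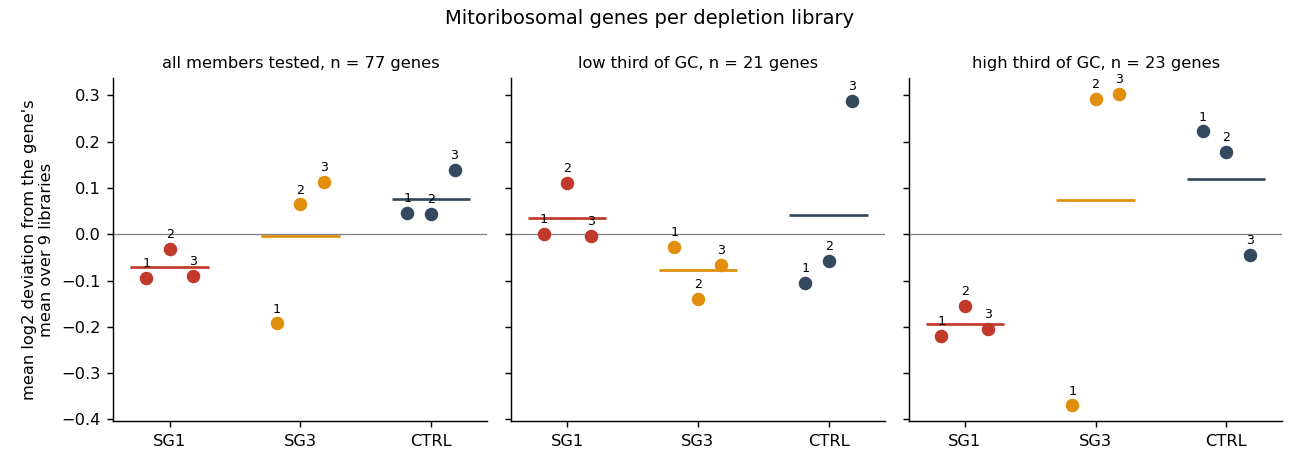
Mean log2 deviation of the mitoribosomal genes from their mean over the 9 depletion libraries, for all 77 tested members, the 21 in the low GC class and the 23 in the high one; points are libraries numbered by replicate and bars are group means. SG1 lies low for high-GC genes (-0.22, -0.16, -0.20), with SG3 replicate 1 below it (-0.37).

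In SG3 against CTRL, the group with the lower KIF20A level, 0 of 77 genes passed the adjusted threshold (0% of all genes) and 0 had an unadjusted p under 0.05 (1.19% of all genes). By DESeq2 both counts were also 0. Fold changes were negative for 58 of 77 genes (75.3%), against 53.3% of all genes, and small: 64 of the 77 lay within 0.2 of 0 on the log2 scale, and the median was -0.08, beside -0.01 for all genes. SG3 lay wholly below CTRL for 4 genes, all of the small subunit by name (MRPS22, MRPS33, MRPS17 and MRPS18A), against 2.38% of all genes, and wholly above for 0 (2.28%). Without SG3 replicate 1 the median was 0.01, 37 genes were negative, and 15 genes lay wholly above CTRL and 5 wholly below, against 9.94% and 9.73% of all genes. Without CTRL replicate 3 the median was -0.05, with 48 negative.

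MRPS22, a mitochondria-specific small-subunit protein in which inherited variants cause mitochondrial disease, had the smallest p in SG3. It had 33.5, 28.7 and 31.9 CPM in SG3, against 36.0, 33.8 and 47.3 CPM in CTRL, with 43.6, 42.3 and 37.4 CPM in SG1. SG3 lay below CTRL by less than the gap between CTRL replicate 3 and the other CTRL libraries. Its log2 fold change was -0.31 ± 0.16 (SE), with an unadjusted p = 0.0628 and an adjusted p of 1.00 by edgeR. MRPS33, also of the small subunit, had 32.8, 31.9 and 31.9 CPM in SG3, against 34.7, 34.4 and 48.5 CPM in CTRL. MRPL16, the counterpart of a bacterial large-subunit protein, had 46.0, 57.0 and 57.0 CPM in SG3, against 56.9, 63.2 and 64.6 CPM in CTRL. The ranges of MRPL16 met, while those of MRPS33 did not.

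The average of SG1 and SG3, as the mean of their log levels, gave against CTRL 66 of 77 negative fold changes (85.7%), against 53.1% of all genes, with a median of -0.12 beside -0.01 for all genes. No gene was called by edgeR (0% of all genes), 0 had an unadjusted p under 0.05 (1.76% of all genes), and 0 had all 6 knockdown libraries below all 3 CTRL libraries (0.441% of all genes) or all above (0.536%). DESeq2 also called 0. The median was -0.07 without CTRL replicate 3, with 49 negative, and -0.07 without SG3 replicate 1, with 65 negative. The smallest p-values were those of MRPL21 (-0.24 ± 0.13), MRPL16 (-0.21 ± 0.12) and MRPS18C (-0.27 ± 0.15), as log2 fold change and SE. MRPS18C had 6.72, 7.19 and 7.72 CPM in SG1 and 6.84, 7.15 and 8.19 CPM in SG3, against 9.04, 8.08 and 9.27 CPM in CTRL, so that 1 SG3 library passed the lowest CTRL library. Both SG1 and SG3 are set against the same CTRL libraries.

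Set against each other, SG1 and SG3 gave 0 called genes by edgeR and by DESeq2 (0% of all genes by edgeR), with 1 gene higher and 6 lower in SG1 at an unadjusted p under 0.05 (1.73% and 3.01% of all genes). The median log2 difference was -0.02, beside 0.01 for all genes, and SG1 lay wholly above SG3 for 9 genes (6.26%) and wholly below for 2 (4.55%). The 9 genes included MRPS9, MRPL3, MRPS22, MRPS10 and MRPS33, and the 2 were MRPL2 and MRPL57. The smallest p-values were those of MRPL12 (-1.74 ± 0.49), MRPL41 (-0.61 ± 0.20) and MRPS26 (-0.59 ± 0.23), as log2 difference and SE. In each of the 3, SG3 replicate 1 lay within or near the SG1 range: MRPS26 had 26.5, 27.8 and 28.01 CPM in SG1, against 25.1, 48.6 and 50.7 CPM in SG3. Without SG3 replicate 1, SG1 lay wholly below SG3 for 36 genes and wholly above for 17, against 21% and 24.2% of all genes. An SG1 effect that differs from the SG3 effect was not detected for any single mitoribosomal gene.

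Other genes of mitochondrial and cytosolic translation gave the setting for these values, and none of them was called by edgeR in either knockdown group. Cytosolic ribosomal proteins had a median log2 fold change of -0.19 in SG1 against CTRL, with 71 of 78 negative, and -0.16 in SG3 against CTRL, with 75 of 78 negative. Nuclear genes of oxidative phosphorylation had -0.17 in SG1, with 68 of 77 negative, and -0.12 in SG3, with 69 of 77 negative. The mitoribosomal medians, -0.16 and -0.08, were closer to 0 than both. Of the subunits with other names, 4 of 5 were negative in SG1 (median -0.12) and 5 of 5 in SG3 (median -0.09); AURKAIP1 had -0.50 and CHCHD1 -0.41 in SG1. Mitoribosome assembly factors had medians of -0.07 and -0.02 over 26 genes in SG1 and SG3 against CTRL, with RPUSD3 at -0.28 and RCC1L at -0.23 in SG1. Mitochondrial aminoacyl-tRNA synthetases had -0.07 and -0.00 over 16 genes in SG1 and SG3.

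Mitochondrial translation factors had medians of 0.09 in SG1, with 11 of 16 positive, and -0.07 in SG3, with 14 of 16 negative. Against most of the list, TUFM, the mitochondrial elongation factor Tu, had -0.33, and TACO1, an activator of MT-CO1 translation, -0.41 in SG1 against CTRL. The highest value of the list in SG1 was 0.42. Genes of mitochondrial transcription and DNA maintenance had -0.01 in SG1 and -0.09 in SG3 over 18 genes, with HSD17B10, a subunit of mitochondrial RNase P, at -0.46 in SG1. Regulators of mitochondrial gene expression had medians of 0.07 in SG1, with 7 of 10 positive, and -0.03 in SG3, with 7 of 10 negative. Among them, ESRRA, a nuclear receptor, had -0.42 and GABPB1, the partner of GABPA, 0.21 in SG1. The mRNAs that the mitoribosome reads were positive for 12 of 13 in SG1, at a median of 0.61, and negative for all 13 in SG3, at a median of -0.16. MT-CO2, a subunit of cytochrome c oxidase, had the smallest p of these in SG1, at 0.63, and the rRNA MT-RNR1 of the small subunit had 0.68, neither of them called. Mitochondrially encoded genes took 2.48%, 1.70% and 3.82% of counts in SG1 and 2.33%, 1.41% and 1.13% in SG3, against 2.84%, 1.34% and 1.13% in CTRL, so the groups overlapped.

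In the libraries labelled KIF20A_OE against EV, 51 of 76 tested genes passed an adjusted p of 0.05 by limma, where 69.6% of all 15265 genes did. Of the 51, 46 were higher (60.5% of the 76, against 46.2% of all genes) and 5 lower (6.58%, against 23.4%). The median log2 fold change was 0.63, beside 0.37 for all genes, and was alike in the large (0.63) and small subunits (0.66). KIF20A_OE lay wholly above EV for 49 of the 76 genes and wholly below for 6 of the 76, against 48.9% and 25.2% of all genes. The share called in either direction, 51 of 76, was near the 69.6% of all genes and is no result about these genes. The shares called higher and called lower were not near those of all genes, but they depend on the scaling. With values rescaled by TMM, the median of all genes was 0.04 and that of the mitoribosomal genes 0.28, with 33 higher and 10 lower; over all genes the calls were then 5169 higher and 4964 lower, in place of 7048 higher and 3573 lower. MRPL53 and MRPS24, under a mean of 1 FPM, were not tested.

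The largest rises were in MRPS21 and MRPL55, both on chromosome 1. MRPS21, a counterpart of a bacterial small-subunit protein, had 136, 132 and 124 FPM in KIF20A_OE, against 23.9, 26.0 and 27.6 FPM in EV. MRPL55, found only in mitochondria, had 128, 126 and 119 FPM in KIF20A_OE, against 26.2, 24.9 and 24.8 FPM in EV. Both ranges lay far apart, with log2 fold changes of 2.30 ± 0.12 (limma adjusted p = 9.13e-07) and 2.26 ± 0.11 (limma adjusted p = 7.56e-07), and MRPL55 had 13.3 to 22.7 CPM over the 9 depletion libraries. MRPL37 (1.82), MRPS14 (1.80), MRPL40 (1.77), MRPS26 (1.58) and MRPL12 (1.58) followed. MRPL12 had 28.6, 35.9 and 27.4 FPM in KIF20A_OE, against 8.28, 12.03 and 8.53 FPM in EV, again without overlap. In all, 22 genes had a log2 fold change above 1 and 1 below -1, on the log2(FPM + 1) scale without TMM rescaling. The shares of all genes beyond these limits were not counted, nor were the counts after TMM rescaling. These counts therefore cannot be called particular to these genes.

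MRPS10, which with MRPL14 had the highest mean levels per kb in CTRL and EV, was that 1 gene. It had 62.6, 72.6 and 72.0 FPM in KIF20A_OE, against 233, 252 and 249.1 FPM in EV, a log2 fold change of -1.81 ± 0.11 (limma adjusted p = 2.61e-06). The drop took MRPS10 to place 27 by level per kb in KIF20A_OE, against place 1 in EV. The other lower genes were MRPL14 (-0.78), MRPS6 (-0.61), MRPL2 (-0.57) and MRPL34 (-0.54). MRPL14 had 52.2, 65.7 and 61.0 FPM in KIF20A_OE, against 114, 91.7 and 104 FPM in EV. Of the 25 genes that did not pass, the log2 fold changes ran from -0.28 to 0.45.

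By position, MRPS10, MRPL14 and MRPL2 lie on chromosome 6, where 3 of 6 tested mitoribosomal genes were lower and 1 higher, with a median of -0.43 beside 0.16 for all genes tested there. Of all genes on chromosome 6, 31.3% were called lower and 40.1% higher. On chromosome 1 all 8 were higher, where 53.6% of all genes were, with a median of 1.43 beside 0.56. On chromosome 17 7 of 8 were higher, where 48.8% of all genes were, with a median of 0.93 beside 0.43. MRPL40 is the only member on chromosome 22, where all genes had a median of 1.27 and 78% were called higher. The medians and calls by chromosome are without TMM rescaling. Gene copy number was not measured, and its part was not tested.

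**Figure D5:**
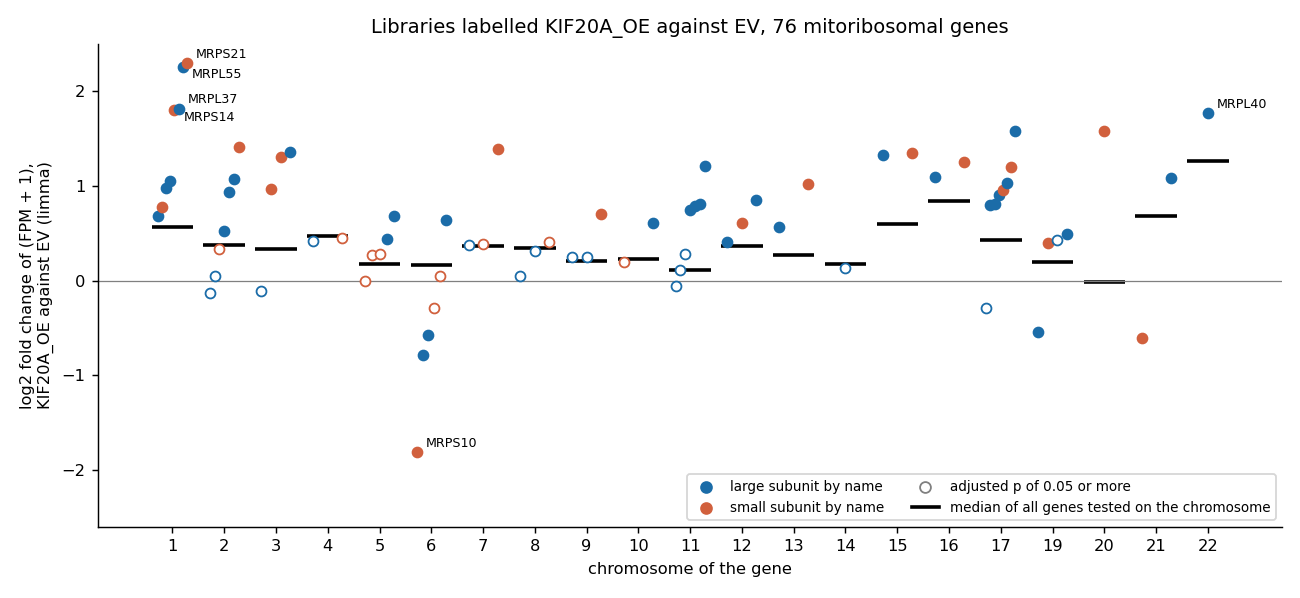
Log2 fold change of FPM + 1 in libraries labelled KIF20A_OE against EV by limma, for 76 mitoribosomal genes by chromosome; filled points passed an adjusted p of 0.05, and black bars give the median of all genes tested on that chromosome. All 8 genes on chromosome 1 lie above 0, and 4 of 6 on chromosome 6 lie below 0, with MRPS10 lowest at -1.81.

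The counts of the companion lists in the libraries labelled KIF20A_OE stand beside 46.2% of all genes called higher and 23.4% called lower, so that 66.4% of all called genes were higher. Their medians stand beside 0.37 for all genes. All these values are without TMM rescaling, which took the median of all genes to 0.04. The companion lists were not counted after that rescaling. Assembly factors were higher for 18 of 25 genes and lower for 0 (median 0.63), led by the helicase DDX28 (1.70) and the rRNA methyltransferase MRM3 (1.16). Mitochondrial aminoacyl-tRNA synthetases were higher for 12 of 16 and lower for 1 (median 1.04), with AARS2 at 2.01. Translation factors were higher for 9 of 15 (median 0.49), including TACO1 (1.30) and GFM1 (1.32), an elongation factor. Transcription and DNA maintenance genes were higher for 12 of 17 (median 0.88), including HSD17B10 (1.81) and POLRMT (1.52), the mitochondrial RNA polymerase. Of the subunits with other names, DAP3 (0.55) and AURKAIP1 (0.43) were higher and PTCD3 (-0.46) lower.

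Among 10 regulators, 5 were higher and 1 lower. PPARGC1B, a coactivator of mitochondrial biogenesis, had 42.3, 52.1 and 43.4 FPM in KIF20A_OE, against 2.05, 2.37 and 1.35 FPM in EV. Its relative PPARGC1A was the lower one, at 0.689, 1.44 and 0.803 FPM in KIF20A_OE, against 3.90, 3.67 and 6.997 FPM in EV. Their log2 fold changes were 4.02 and -1.54 (limma adjusted p = 7.05e-07 and 0.000920). Cytosolic ribosomal proteins were higher for 61 of 79 genes (median 0.59) and nuclear genes of oxidative phosphorylation for 59 of 73, with 1 lower (median 0.74), so the mitoribosomal median of 0.63 lay between these lists.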

How the data were processed

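RNA-seq of 15 libraries in 5 groups of 3 was analysed. The depletion table held raw counts per gene as deposited by the authors. The labels call the values of the overexpression table FPKM. Its columns as deposited each sum to 1000000, and 100% of values are whole multiples (tolerance 0.001) of what 1 fragment is worth, so they are FPM, which is CPM of fragments without a length term. The log-scale test of the design was kept. The submitters' processing notes name hg38, STAR 2.7.3a, Trim Galore 0.6.4, limma 3.50.3, Subread 1.6.3 and featureCounts; strand and multi-mapping settings were not stated there.

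Counts were tested with edgeR 4.0.16 (TMM, filterByExpr, quasi-likelihood, all 9 libraries in 1 fit) and FPM with limma 3.58.1 (trend and robust) on log2(FPM + 1) where the mean over libraries reached 1 FPM, in R 4.3.3. Fold changes on that scale understate those of low genes. Adjusted p-values are Benjamini-Hochberg over all genes tested, with a threshold of 0.05. The fits were tested on simulated data with the same spread for every gene and no outlying library, a simpler setting than these libraries. That test does not measure how well the fits find changes in these data. Lengths, GC content and overlaps came from GENCODE 29, which matched 96.2% and 97.3% of identifiers in the 2 tables. Named genes were those called, the 3 smallest p-values of each comparison, the highest and lowest 2 levels per kb in each subunit, the MRPS18 paralogs, and the called or 2 lowest-p genes of the companion lists; where many were called, the largest are named. Genes and lists were chosen with earlier results of these data known. Floors cover counting error only. DESeq2 1.42.0, other scalings, filters and pseudocounts, halved counts, left-out libraries and a replicate block were tried as alternatives.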

Additional observations from a re-analysis of the deposited data

How the results depend on the processing

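In the depletion comparisons, 0 mitoribosomal genes were called under DESeq2, library totals without TMM, halved counts, fits of 6 libraries, the GC correction (chosen after seeing the data) and each left-out library. The counts of genes whose groups do not overlap without single libraries were also chosen after seeing the data. Without the low-count filter 2 genes were called in SG1 against CTRL (MRPL12 at -1.57 and MRPS34 at -0.86) and 2 in SG1 against SG3, where 91 and 77 of 31103 genes were called in all. The median log2 fold change with single libraries left out ran from -0.21 to -0.13 in SG1 against CTRL, from -0.15 to 0.01 in SG3 against CTRL, and from -0.14 (without SG3 replicate 1) to 0.033 (without SG3 replicate 3) in SG1 against SG3. Lower genes at an unadjusted p under 0.05 in SG1 against CTRL numbered 6, and 10 with only the 6 libraries compared. They numbered 20 without SG3 replicate 1 and 9 without CTRL replicate 3 (with 4 higher). They numbered 4 without SG1 replicate 2, 3 without SG1 replicate 1, and 2 without CTRL replicate 2 or SG1 replicate 3. Without CTRL replicate 1 there was 1. The share of all genes at that threshold was not counted in these other fits. In KIF20A_OE against EV, the median of 0.63 became 0.28 with TMM rescaling and 0.27 with edgeR on recovered fragments. Both had 33 higher and 10 lower genes, where 66.6% and 63.8% of all genes were called. With single libraries left out, calls in KIF20A_OE against EV ran from 42 to 50 higher and from 3 to 6 lower. Of all genes, 63.3% to 67.7% were called in those fits, and 65.6% to 68.1% of the called genes were higher. The causes were not tested.

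Replicate numbers did not pair the libraries: deviations of same-numbered libraries correlated at -0.12 to 0.18 in the depletion experiment and 0.01 to 0.06 in the overexpression experiment. With the replicate block, 0 genes were called in each depletion comparison (median -0.15 in SG1 and -0.09 in SG3 against CTRL). In KIF20A_OE against EV, 48 were higher and 5 lower with the block. Of all 15265 genes, 69.0% were then called, 6984 higher and 3546 lower.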
